A study of Mus musculus with 5 samples.

Results

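The galectin genes Lgals1, Lgals3 and Lgals9 and the galectin ligand gene Lgals3bp were followed across mouse spleen cell types and infusions. They are 4 of the 32285 genes in the deposited feature tables and were picked there by symbol. Their unique molecular identifiers (UMIs) were counted in cells, meaning barcodes that reached 1000 UMIs and 500 genes with no more than 10% of UMIs from mitochondrial genes. The 4 genes were chosen with their measured levels known, Lgals1 in particular for its level in type 2 conventional dendritic cells (cDC2) after live allogeneic infusion. Their levels by class and library are therefore given as a description.

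Single-cell RNA sequencing was run on spleens of C57/BL6 mice taken 48 h after an intravenous infusion. The 5 groups were live allogeneic cells, live isogeneic cells, apoptotic allogeneic cells, apoptotic isogeneic cells and saline. Infused cells were splenic cells, allogeneic ones from Balbc and isogeneic ones from B6 donors. Digested spleens were enriched on magnets, once for CD45+ cells and once for dendritic cells, and equal numbers of both were sequenced together. Each group had 1 library, and the labels do not say how many mice it came from. A difference between groups is thus a difference between 2 libraries, with no replicate check and no p-value. Donor cells still present in a spleen were not told apart from host cells.

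Galectins are lectins that bind galactose-containing sugar chains on surface and secreted glycoproteins, and they cross-link these glycoproteins into lattices. They lack a signal peptide and also act inside the cell, where they mark damaged vesicles. Galectin-1, encoded by Lgals1, forms dimers and is known for restraining activated T cells and for inducing tolerogenic dendritic cells. Galectin-3, encoded by Lgals3, joins its sugar-binding domain to a tail through which it forms multimers, and it is abundant in macrophages. Galectin-9, encoded by Lgals9, carries a pair of linked sugar-binding domains and is known as an interferon-inducible ligand proposed for Tim-3. Lgals3bp encodes no galectin but a secreted, interferon-inducible glycoprotein that binds galectin-3.

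In the GRCm38 annotation (GENCODE M21, matched on the files' Ensembl identifiers), all 4 are protein-coding genes that no other annotated gene overlaps. Lgals1 (ENSMUSG00000068220) lies on the plus strand at chr15:78926725-78930465. Lgals3 (ENSMUSG00000050335) lies on the plus strand at chr14:47367751-47386160. Lgals9 (ENSMUSG00000001123) and Lgals3bp (ENSMUSG00000033880) lie on the minus strand at chr11:78962974-78984946 and chr11:118392751-118402092. The promoter windows of RefSeq (GRCm38.p6, 250 bases before to 50 after the start) held 3 of the 4 genes, all but Lgals1. Each window was searched on both strands for the interferon-stimulated response element core (GAAA, any 2 bases, GAAA), for the same with any 3 bases between, and for the gamma-activated site (TTC, any 3 bases, GAA). The Lgals3 window lies at chr14:47373610-47373909, inside the gene span given above, so the bases at the annotated gene start were not searched. It held none of these letters. The windows of Lgals9 and Lgals3bp did, and the bases upstream of their starts are shown here 5′ to 3′ on the minus strand, with the matches in capitals. These stretches are chr11:78984925-78985174 for Lgals9 and chr11:118401960-118402209 for Lgals3bp. Starts here are those of the RefSeq windows, and both stretches reach into the gene spans given above. The Lgals3bp match lies inside its gene span, and the Lgals9 match in capitals lies outside.
Lgals9: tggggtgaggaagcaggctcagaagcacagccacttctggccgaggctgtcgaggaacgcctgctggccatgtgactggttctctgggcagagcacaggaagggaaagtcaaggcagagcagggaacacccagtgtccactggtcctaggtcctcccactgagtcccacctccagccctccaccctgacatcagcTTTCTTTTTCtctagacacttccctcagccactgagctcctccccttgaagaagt
Lgals3bp: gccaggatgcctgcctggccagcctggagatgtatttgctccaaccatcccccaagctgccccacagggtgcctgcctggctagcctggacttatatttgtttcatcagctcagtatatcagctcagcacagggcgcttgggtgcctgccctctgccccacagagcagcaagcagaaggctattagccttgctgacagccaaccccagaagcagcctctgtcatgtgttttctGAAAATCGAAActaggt
The Lgals9 window matched the core with 2 bases between on the other strand at bases 196 to 205, printed above, and again at bases 266 to 275, past the start, with the letters TTTCTGTTTC. The Lgals3bp window matched the form with 3 bases between at bases 234 to 244. Of 32851 such windows, 3.44% held the first of these motifs, 2.75% the form with 3 bases between and 8.30% the gamma-activated site. A match is a description of the letters and shows no binding.

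In all, 16132 cells were kept, from 1185 in the live allogeneic to 6263 in the apoptotic isogeneic library. Total UMIs over all listed barcodes ranged between 12742889 and 32641733 per library. The kept cells held 10559662 to 23988302 UMIs per library, and their median UMIs per cell lay between 2267 and 4974. Pairs of libraries shared 0 to 8 cell barcodes. Cells were clustered with the 4 genes kept out of the variable genes, and clusters were called like a cell type from marker lists. The UMIs of each class and library were summed and scaled to a total of 1000000 (CPM). A class was compared with at least 30 cells and 50000 UMIs in both libraries, and a gene with at least 50 UMIs in both sums together. A ratio of at least 1.5-fold either way was called higher or lower. Intervals are exact 95% Poisson intervals of sums and ratios and Clopper-Pearson intervals of shares, and they cover counting error only. In 8 classes all 5 libraries could be compared, and levels there are means over the 5 libraries with the lowest and the highest library.

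Lgals1 was highest in cells like plasmacytoid dendritic cells (pDC) and natural killer cells. It averaged 1924 CPM (1562 to 2212) in pDC-like and 1729 CPM (1198 to 2151) in natural killer-like cells, and these ranges overlapped. T-like cells followed with 381 CPM (227 to 692), below the range of natural killer-like cells. The level was 215 CPM (98.9 to 449) in cDC2-like, 115 CPM (56.2 to 162) in red pulp macrophage-like and 73.2 CPM (48.5 to 109) in cDC1-like cells, each overlapping the next. B-like cells had 39.0 CPM (30.6 to 44.4) and erythroid-like cells 8.85 CPM (5.65 to 11.9), with no overlap between them. The highest class stood 217-fold above the lowest. After every cell was thinned to 1000 UMIs, 68.9% to 89.7% of pDC-like cells in a library had an Lgals1 UMI, against 0% to 2.50% of erythroid-like cells. Median UMIs per cell before thinning were 5936 in the pDC-like and 22885 in the erythroid-like cluster.

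Among the classes compared in all libraries, Lgals3 was highest in conventional dendritic cells and macrophages, though a monocyte cluster described below was higher. It averaged 581 CPM (509 to 700.4) in cDC1-like, 431 CPM (290.0 to 891) in red pulp macrophage-like and 256 CPM (156 to 456) in cDC2-like cells, with overlapping ranges. The other classes compared in all libraries lay below the cDC2-like range, pDC-like cells with 48.2 CPM (23.8 to 98.9) and natural killer-like cells with 18.8 CPM (10.9 to 26.8). T-like cells had 12.2 CPM (8.54 to 17.3), B-like cells 8.56 CPM (5.71 to 10.3) and erythroid-like cells 0.720 CPM (0.264 to 1.495). Over these classes the range was 806-fold, the widest of the 4 genes. One cDC1-like cluster, led by Cst3, Cxcl9 and Apol7c, also had Lgals3 among its 10 leading genes although the gene took no part in the clustering. There Lgals3 reached 1075 CPM in the 28 cells of the live allogeneic library, too few for a comparison, 883 CPM in the live isogeneic, 1808 CPM in the apoptotic allogeneic, 1192 CPM in the apoptotic isogeneic and 1017 CPM in the saline library.

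Cells led by monocyte genes (Chil3, Fn1, Ace and Lyz2) formed 1 cluster with markers of both classical and non-classical monocytes and were left unnamed. Lgals3 was high in them, with 1228 CPM in the live isogeneic, 986 CPM in the apoptotic allogeneic, 1619 CPM in the apoptotic isogeneic and 1019 CPM in the saline library. Each of these values lay above the highest cDC1-like library (700.4 CPM), but the cluster took no part in the order of classes. The live allogeneic library had too few of these cells to compare. Where a finer clustering split them, the classical part had 1724 CPM of Lgals3 in 44 live isogeneic cells and 1983 CPM in 48 apoptotic isogeneic cells. The non-classical part had 501 CPM in 57 and 642 CPM in 39 cells of the same libraries.

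Lgals9 was led by erythroid-like cells, with 217 CPM (176 to 333), and red pulp macrophage-like cells, with 119 CPM (79.8 to 181). Natural killer-like, T-like, B-like and pDC-like cells lay close together at 84.3, 73.0, 72.4 and 55.3 CPM, and each of these ranges overlapped the next. The dendritic cells of the conventional types were lowest, cDC2-like cells with 30.8 CPM (23.5 to 53.8) and cDC1-like cells with 15.1 CPM (12.9 to 20.6), which did not overlap. From the highest to the lowest class the span was 14.4-fold.

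Lgals3bp was highest in red pulp macrophage-like cells, with 331 CPM (204 to 554), above the range of every other class compared in all libraries. It averaged 109.7 CPM (66.0 to 171) in pDC-like and 101 CPM (81.4 to 115) in erythroid-like cells. Natural killer-like cells had 69.7 CPM, T-like cells 56.4 CPM, cDC2-like cells 50.2 CPM and cDC1-like cells 36.4 CPM, and every range overlapped its neighbour's. B-like cells were lowest with 17.0 CPM (10.4 to 39.2). The red pulp macrophage-like level was 19.5-fold the B-like one.

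**Figure D1:**
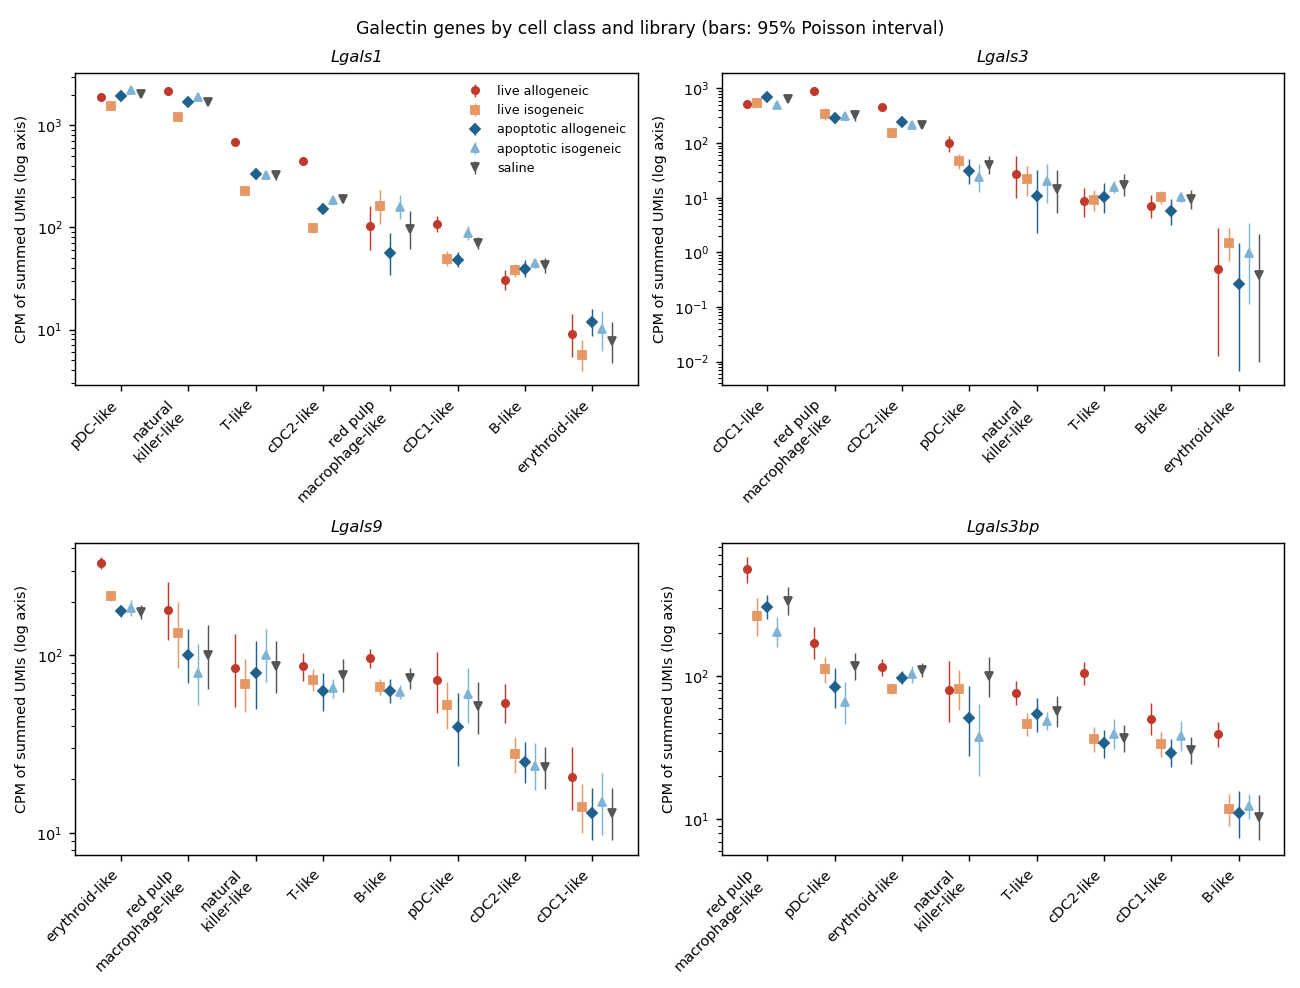
CPM of the summed UMIs of each gene (log axis) by cell class, ordered by mean level, with a point per library and bars for exact 95% Poisson intervals. Among the classes shown, Lgals1 was highest in pDC-like (mean 1924 CPM) and Lgals3 in cDC1-like cells (581 CPM). Lgals9 was highest in erythroid-like (217 CPM) and Lgals3bp in red pulp macrophage-like cells (331 CPM).

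The 4 genes were thus spread over the spleen in 4 different orders. Over 60 sums of class and library (16 classes), Pearson's r of log2(CPM + 10) was 0.04 between Lgals1 and Lgals3, -0.44 between Lgals3 and Lgals9 and 0.49 between Lgals9 and Lgals3bp. These sums share libraries and classes, and r is a description. Among 8989 genes, those most like Lgals1 included Fyn (r = 0.82), Ahnak (0.82), Rnaset2b (0.81) and Cd7 (0.80). Cd7 encodes a known surface receptor of galectin-1. For Lgals3 the 5 most like it were Lrrc25 (0.89), Csf2ra (0.88), Igsf6 (0.87), Man2b1 (0.87) and Plbd1 (0.87), of which Csf2ra encodes the GM-CSF receptor alpha chain. Ndufs7, Pdlim1, Klhl12, Cbr1 and Nifk came closest to Lgals9, with r between 0.77 and 0.80. Blvra, which encodes a biliverdin reductase, came closest to Lgals3bp (0.76), followed by Cndp2, Slc25a51, Slc16a10 and Slc48a1 (0.71 to 0.74).

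In cDC2-like cells all 4 genes were highest in the live allogeneic library. These cells numbered 124 in the live allogeneic, 388 in the live isogeneic, 344 in the apoptotic allogeneic, 438 in the apoptotic isogeneic and 432 in the saline library. Lgals1 had 449 CPM in the live allogeneic, 98.9 CPM in the live isogeneic, 152 CPM in the apoptotic allogeneic, 185 CPM in the apoptotic isogeneic and 189.9 CPM in the saline library. The live allogeneic library stood above all others, and the live isogeneic one below saline. Live allogeneic over live isogeneic, Lgals1 was 4.54-fold higher (3.91 to 5.28). Lgals3 had 456 CPM in the live allogeneic, 156 CPM in the live isogeneic, 241 CPM in the apoptotic allogeneic, 210.7 CPM in the apoptotic isogeneic and 217 CPM in the saline library. Again the live allogeneic level was highest and the live isogeneic one lowest, at a ratio of 2.92 (2.57 to 3.32).

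Lgals9 had 53.8 CPM in the live allogeneic library, and the other 4 lay together: 27.7 CPM in the live isogeneic, 25.1 CPM in the apoptotic allogeneic, 23.9 CPM in the apoptotic isogeneic and 23.5 CPM in the saline library. Its live allogeneic to live isogeneic ratio was 1.94 (1.37 to 2.75), and 1.34 as a mean over cells, which is under the fold used. Lgals3bp also stood apart in that library alone, with 104 CPM in the live allogeneic, 36.2 CPM in the live isogeneic, 34.0 CPM in the apoptotic allogeneic, 39.6 CPM in the apoptotic isogeneic and 36.9 CPM in the saline library. Its ratio was 2.88 (2.19 to 3.80). So for Lgals9 and Lgals3bp the live allogeneic library alone stood apart, while for Lgals1 and Lgals3 the live isogeneic library also lay below the other 3. For background, 9.03% of the 6911 genes tested in cDC2-like cells were called higher and 11.4% lower in this contrast, which had been used to choose the genes.

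Few cells carried much of the Lgals1. The 5 cells with the most Lgals1 UMIs held 41.9% of them after live allogeneic and 47.0% after live isogeneic infusion. After thinning to 1000 UMIs, 19.4% of live allogeneic (12.8 to 27.4) and 4.38% of live isogeneic cDC2-like cells (2.57 to 6.92) had an Lgals1 UMI. In the apoptotic allogeneic, apoptotic isogeneic and saline libraries the share was 6.98%, 7.76% and 8.10%. Before thinning, 46.8% of live allogeneic and 16.8% of live isogeneic cells had a UMI, with median depths of 8811 and 7015 UMIs. B-like cells, which are low in Lgals1, had a thinned share of 1.94% in the live allogeneic library at a median depth of 3914 UMIs. For Lgals3 the thinned share was 20.2% (13.5 to 28.3) in live allogeneic and 10.6% (7.69 to 14.1) in live isogeneic cells. For Lgals3bp it was 6.45% (2.83 to 12.3) and 2.84% (1.42 to 5.02), and for Lgals9 4.84% (1.80 to 10.2) and 2.58% (1.24 to 4.69). Only the Lgals1 intervals of these 2 libraries did not overlap.

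The cDC2-like cells formed a cluster led by Cd209a and Mgl2 (446 cells), a cluster led by Bex6 and Ffar2 (1204 cells) and a small shallow cluster (76 cells, median 1518 UMIs). A cluster named stromal-like (143 cells, 27 live allogeneic and 49 live isogeneic) also passed 10 cDC2 markers and stayed outside the class. At Leiden resolution 2 a further cDC2-like cluster of 169 cells appeared, with Mxd3 and the cell cycle gene Pclaf among its leading genes. With the 4 genes allowed among the variable genes a like cluster had 115 cells. Lgals1 and Lgals3 marked the Cd209a cluster, also in saline, where it had 553 CPM of Lgals1 and 548 CPM of Lgals3 against 59.3 and 97.0 CPM in the Ffar2 cluster. Within the Cd209a cluster, Lgals1 had 805 CPM in 46 live allogeneic cells and 213 CPM in 102 live isogeneic cells, a ratio of 3.79 (3.18 to 4.52). The ratio was 2.35 (2.02 to 2.74) for Lgals3, 2.11 (1.54 to 2.92) for Lgals3bp and 1.61 (1.01 to 2.56) for Lgals9. Within the Ffar2 cluster, Lgals1 had 123 CPM in 69 live allogeneic cells and 48.4 CPM in 244 live isogeneic cells, a ratio of 2.55 (1.84 to 3.51). There Lgals3bp was 2.88-fold (1.62 to 5.13), Lgals9 1.97-fold (1.11 to 3.43) and Lgals3 1.85-fold higher (1.39 to 2.46). All 4 genes were therefore called higher in both clusters. The share of all genes called within each cluster is not given here, so these calls have no background of their own.

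Against saline the 2 clusters did not give the same picture as the class. In the class, live allogeneic over saline, Lgals1 was 2.36-fold (2.08 to 2.69), Lgals3 2.10-fold (1.86 to 2.38), Lgals9 2.29-fold (1.57 to 3.36) and Lgals3bp 2.82-fold higher (2.12 to 3.77). With each cell thinned to 1000 UMIs, Lgals3 (1.47) and Lgals9 (1.39) were under the fold used. Of 6625 genes tested there, 9.68% were called higher and 13.2% lower. Within the Cd209a cluster, Lgals1 was 1.46-fold (1.26 to 1.68) and Lgals3 1.45-fold (1.26 to 1.68), under the fold used here. Lgals3bp there was 3.50-fold (2.30 to 5.46) and Lgals9 2.31-fold higher (1.31 to 4.22). Within the Ffar2 cluster, Lgals1 was 2.08-fold (1.52 to 2.84) and Lgals9 1.83-fold higher (1.03 to 3.18), while Lgals3 was 1.39-fold (1.05 to 1.83) and Lgals3bp 1.34-fold (0.806 to 2.18). The Cd209a cluster gave 47.9% of the cDC2-like UMIs in the live allogeneic, 31.2% in the live isogeneic and 26.5% in the saline library. For Lgals1 and Lgals3 neither of these clusters thus reached the class ratio to saline.

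**Figure D2:**
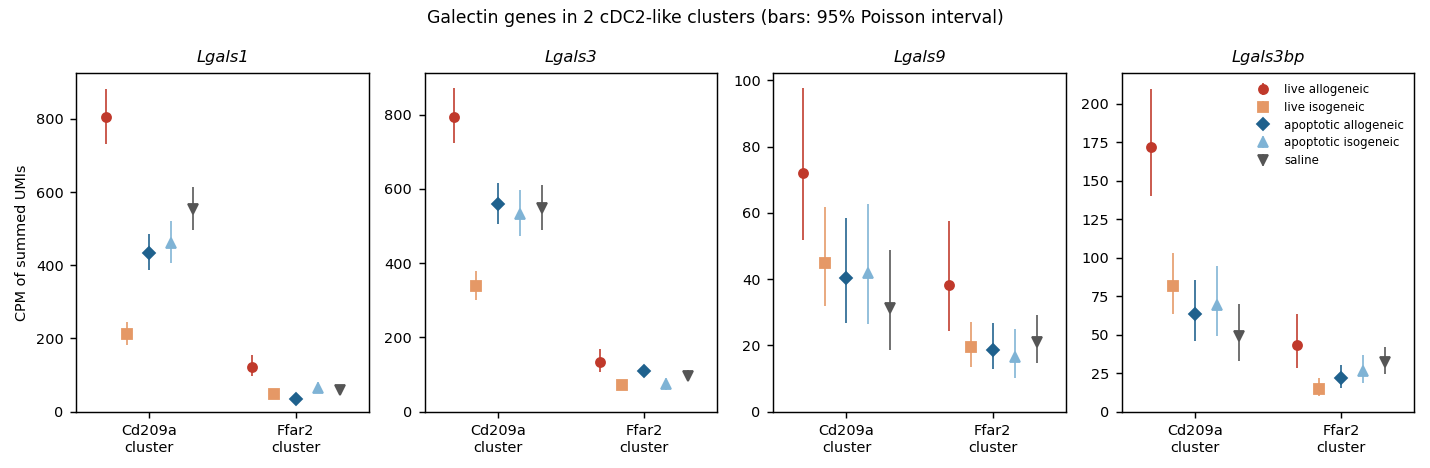
CPM of the summed UMIs of each gene in the 2 larger cDC2-like clusters, with a point per library and bars for exact 95% Poisson intervals (axes start at 0). In the Cd209a cluster Lgals1 stood at 805 CPM after live allogeneic and at 213 CPM after live isogeneic infusion, with saline at 553 CPM between them.

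Some values of other cell types moved with these levels. The summed level of 12 classical monocyte markers in cDC2-like cells was 7738 CPM in the live allogeneic library, and 4606, 4457, 4631 and 3880 CPM in the live isogeneic, apoptotic allogeneic, apoptotic isogeneic and saline ones. Of these markers 6 of the 7 measured were called higher live allogeneic over live isogeneic, while Vcan, Chil3 and Hp were at 0 in the live allogeneic and Vcan in the live isogeneic library. The summed level of 13 red pulp macrophage markers was 503 CPM in live allogeneic and 318 CPM in live isogeneic cDC2-like cells, with Slc40a1 and Cd5l at 0 in the live allogeneic ones. That of 14 pDC markers was 1187 CPM and 659 CPM in the same order, with Klk1 at 0 in every library. The pDC marker Bst2 is also on the list of interferon-stimulated genes used below and was 3.99-fold higher (3.45 to 4.63) live allogeneic over live isogeneic. Within the Ffar2 cluster the live allogeneic and live isogeneic sums were 4313 and 3520 CPM for the monocyte markers, 93.4 and 92.4 CPM for the macrophage markers and 579 and 565 CPM for the pDC markers. Within the Cd209a cluster they were 11372 and 7001 CPM, 949 and 810.3 CPM, and 1854 and 886 CPM. The sum of 12 non-classical monocyte markers went the other way, with 604 CPM in live allogeneic and 814 CPM in live isogeneic cDC2-like cells. Of 10 measured, 0 were called higher and 3 lower. In the same order that sum was 443 and 884 CPM in the Cd209a cluster and 762 and 787 CPM in the Ffar2 cluster. Of the 16 cDC2 markers themselves, 1 was called higher and 8 lower. In barcodes of at most 100 UMIs, which hold free RNA, Lgals1 had 303 CPM in the live allogeneic, 115 CPM in the live isogeneic, 276 CPM in the apoptotic isogeneic and 282 CPM in the saline library. In these same libraries the B-like cells had 30.6, 38.1, 44.4 and 42.7 CPM of Lgals1. The part of the marker levels in the cDC2-like ratios was not tested.

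Outside cDC2-like cells, the live allogeneic library was higher for Lgals3bp in most classes and for the other genes in some. Of 32 pairs of a gene and a named class, 28 could be measured live allogeneic over live isogeneic, and 16 were called higher, 0 lower and 12 neither. Over all genes and the same classes, 8.31% of pairs were called higher and 14.2% lower. These include the 4 cDC2-like pairs. By class, the share of genes called higher was 3.98% in B-like, 17.2% in T-like, 7.6% in cDC1-like, 2.51% in erythroid-like, 11.9% in natural killer-like, 7.85% in pDC-like and 22.3% in red pulp macrophage-like cells. For Lgals3bp 6 of 8 classes were called higher, for Lgals1 5 of 7, for Lgals3 3 of 5 and for Lgals9 2 of 8. Each of these counts includes cDC2-like cells, whose contrast had been used to choose the genes. Apart from them, Lgals9 was called higher in erythroid-like cells only. In 15 of the 16 the interval lay above 1, and the exception was Lgals1 in erythroid-like cells (1.60-fold, 0.849 to 2.91).

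Lgals3bp, the interferon-inducible ligand gene, was called higher in B-like cells, where it had 39.2 CPM in the live allogeneic, 11.8 CPM in the live isogeneic, 11.04 CPM in the apoptotic allogeneic, 12.4 CPM in the apoptotic isogeneic and 10.4 CPM in the saline library. The live allogeneic library alone was high, at 3.33-fold (2.41 to 4.63) the live isogeneic level. A B-like cluster led by the interferon-inducible Ifit3 and Ifi208 held 259 of the 515 live allogeneic B-like cells, while in the live isogeneic library another cluster held the largest share, 455 of 1441. Without the Ifit3 cluster the ratio was 2.69 (1.69 to 4.24). Lgals3bp was also called higher in red pulp macrophage-like (2.12-fold, 1.47 to 3.11), T-like (1.65-fold, 1.26 to 2.17), pDC-like (1.54-fold, 1.10 to 2.13) and cDC1-like cells, where the ratio of 50.4 to 33.6 CPM was just at the fold used (interval 1.07 to 2.08). In natural killer-like cells it had 80.3 CPM after live allogeneic and 80.5 CPM after live isogeneic infusion, a ratio of 0.997 (0.539 to 1.78). Over the 8 classes, Lgals3bp and Lgals9 were each highest in the live allogeneic library in 7.

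Lgals1 in T-like cells had 692 CPM in the live allogeneic, 227 CPM in the live isogeneic, 334 CPM in the apoptotic allogeneic, 327 CPM in the apoptotic isogeneic and 326 CPM in the saline library. The live allogeneic to live isogeneic ratio was 3.05 (2.75 to 3.39). The 5 cells with the most Lgals1 UMIs held 62.0% of them in live allogeneic and 33.5% in live isogeneic T-like cells. After thinning, 15.4% of live allogeneic (10.0 to 22.3) and 10.8% of live isogeneic T-like cells (8.27 to 13.7) had an Lgals1 UMI, and these intervals overlapped. A T-like cluster of 37 large cells (median 16192 UMIs), which held 17 of the 149 live allogeneic and 8 of the 539 live isogeneic T-like cells, was rich in Lgals1 with 1226 and 1662 CPM. Without it T-like cells had 320.0 CPM after live allogeneic and 175 CPM after live isogeneic infusion, a ratio of 1.83 (1.57 to 2.14). Against saline the T-like ratio was 2.13 (1.89 to 2.40) with and 1.02 (0.863 to 1.19) without that cluster. The largest share of T-like cells came from a Cd8b1 cluster in the live allogeneic library (42.3%) and from a Cd40lg cluster in the live isogeneic library (43.6%).

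In natural killer-like cells Lgals1 had 2151 CPM after live allogeneic and 1198 CPM after live isogeneic infusion, a ratio of 1.80 (1.59 to 2.03). In cDC1-like cells the values were 109 and 49.5 CPM, a ratio of 2.20 (1.73 to 2.80). A cycling cluster held 21 of the 88 live allogeneic and 23 of the 296 live isogeneic cDC1-like cells, and the shallow Cst3 and Apol7c cluster held 28 and 129. Within the main cDC1-like cluster Lgals1 had 120.5 CPM in 39 live allogeneic and 49.4 CPM in 144 live isogeneic cells (2.44, 1.85 to 3.21). In pDC-like cells, where the gene was most abundant, they were 1884 and 1562 CPM, and the ratio of 1.21 (1.10 to 1.32) stayed under the fold used. The live isogeneic library was the lowest of the 5 for Lgals1 in 5 of 8 classes, which were the pDC-like, natural killer-like, T-like, cDC2-like and erythroid-like ones. In B-like cells the order was the other way, with 30.6 CPM after live allogeneic and 38.1 CPM after live isogeneic infusion (0.803, 0.611 to 1.05).

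Red pulp macrophage-like cells had 891 CPM of Lgals3 in the live allogeneic, 348 CPM in the live isogeneic, 290.0 CPM in the apoptotic allogeneic, 308 CPM in the apoptotic isogeneic and 321 CPM in the saline library. The live allogeneic library (37 cells) stood apart, at 2.56-fold (1.89 to 3.52) the live isogeneic level, and the other 4 lay together. In pDC-like cells Lgals3 had 98.9 CPM after live allogeneic and 46.7 CPM after live isogeneic infusion, a ratio of 2.12 (1.31 to 3.41). In cDC1-like cells, where the gene was highest among the classes compared in all libraries, the values were 520.2 and 542 CPM, a ratio of 0.959 (0.873 to 1.05). Lgals9 in erythroid-like cells had 333 CPM in the live allogeneic, 215 CPM in the live isogeneic, 177 CPM in the apoptotic allogeneic, 186 CPM in the apoptotic isogeneic and 176 CPM in the saline library. That was 1.55-fold higher (1.41 to 1.70) live allogeneic over live isogeneic. Erythroid-like cells had a median of 43710 UMIs in 50 live allogeneic cells and 3605 UMIs in 321 live isogeneic cells, and the part of this depth in the ratio was not tested. Lgals9 had 96.4 CPM after live allogeneic and 66.5 CPM after live isogeneic infusion in B-like cells, and the ratio of 1.45 (1.23 to 1.71) was just under the fold used.

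**Figure D3:**
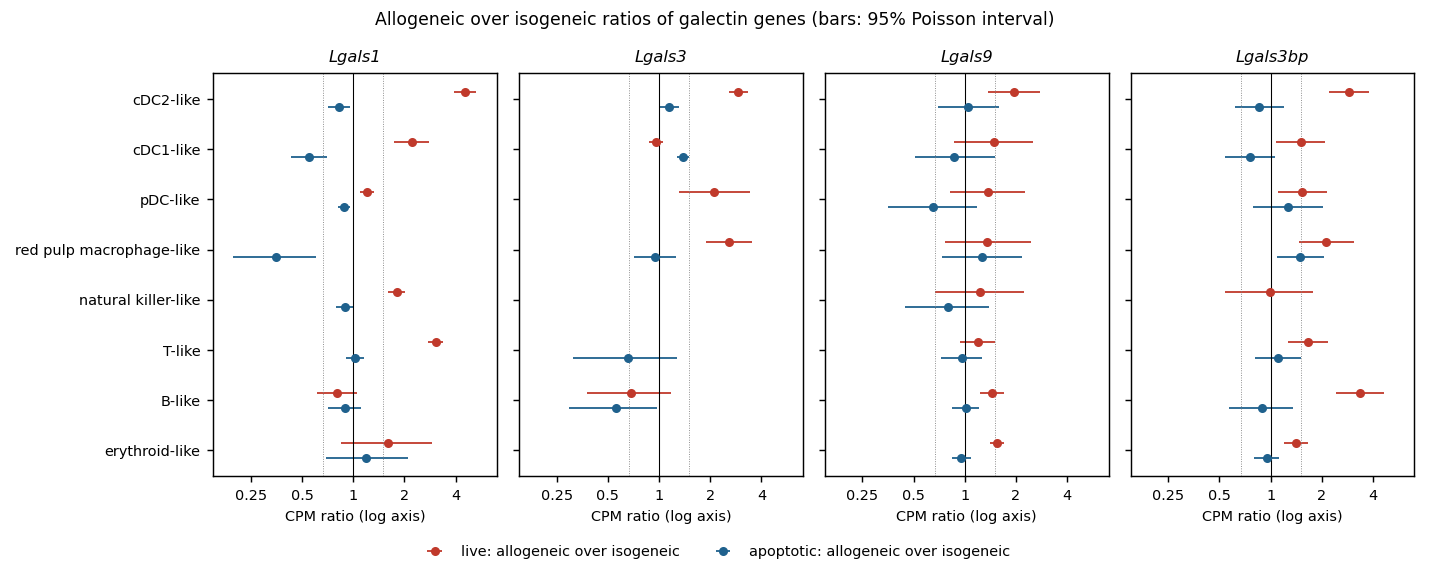
Ratio of CPM, allogeneic over isogeneic, for live and for apoptotic cells (log axis) in 8 classes, with bars for exact 95% Poisson intervals and dotted lines at 1.5-fold either way; genes under 50 UMIs are left out. The ratios for live cells lie mostly to the right of 1, up to 4.54 for Lgals1 in cDC2-like cells. Those for apoptotic cells lie on both sides of 1. They are above it for Lgals3 in cDC1-like cells and reach down to 0.352 for Lgals1 in red pulp macrophage-like cells.

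With apoptotic cells few pairs were called in either direction. Of 44 pairs of a gene and a class, 32 could be measured, and 1 was called higher, 6 lower and 25 neither. Over all genes, 3.97% of pairs were called higher and 4.12% lower. In cDC2-like cells, apoptotic allogeneic over apoptotic isogeneic, the ratio was 0.826 (0.710 to 0.961) for Lgals1, 1.14 (1.00 to 1.31) for Lgals3, 1.05 (0.698 to 1.59) for Lgals9 and 0.857 (0.616 to 1.19) for Lgals3bp, none past the fold, with the Lgals3 interval above 1. There 3.25% of 6958 genes were called higher and 3.09% lower. Within the Ffar2 cluster Lgals1 was lower, with 34.5 CPM in apoptotic allogeneic and 65.7 CPM in apoptotic isogeneic cells (0.525, 0.369 to 0.744). The ratio within the Cd209a cluster is not given here. Lgals1 was also lower in cDC1-like cells, with 48.5 and 88.3 CPM (0.549, 0.433 to 0.696), and in red pulp macrophage-like cells, with 56.2 and 159.7 CPM (0.352, 0.197 to 0.604).

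The other calls of this pair were Lgals3 in mature DC-like cells (172 and 115 CPM, just at the fold used, 0.992 to 2.31), Lgals3 in B-like (0.554, 0.297 to 0.969) and T-like cells (0.661, 0.313 to 1.27), Lgals9 in pDC-like (0.654, 0.351 to 1.18) and Lgals3bp in platelet or megakaryocyte-like cells (0.523, 0.299 to 0.903). In cDC1-like cells Lgals3 had 700.4 CPM in the apoptotic allogeneic and 509 CPM in the apoptotic isogeneic library, a ratio of 1.38 (1.27 to 1.49), under the fold used. Within its Cst3 and Apol7c cluster the ratio was 1.52 (1.22 to 1.90). In 4 of the 6 lower pairs the interval lay below 1. The platelet or megakaryocyte-like cluster also passed 7 progenitor markers. Of all genes, 3.69% were called lower in cDC1-like, 7% in red pulp macrophage-like, 3.05% in B-like, 5.72% in T-like, 4.31% in pDC-like and 5.81% in platelet or megakaryocyte-like cells, and 7.2% higher in mature DC-like cells. In the unnamed monocyte cluster, Lgals1 had 249 CPM in the apoptotic allogeneic and 485 CPM in the apoptotic isogeneic library (0.513, 0.377 to 0.691). Lgals3 there had 986 and 1619 CPM (0.609, 0.522 to 0.709). The finer clustering put 9 apoptotic allogeneic and 48 apoptotic isogeneic cells in the classical part of that cluster, which is the part richer in both genes.

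Against saline, the live allogeneic library had 14 of 26 measured pairs called higher and 0 lower, with 9.04% and 12.8% of pairs over all genes. Outside cDC2-like cells these were Lgals1 in T-like and cDC1-like, Lgals3 in red pulp macrophage-like and pDC-like, Lgals9 in erythroid-like, red pulp macrophage-like and cDC1-like, and Lgals3bp in B-like, red pulp macrophage-like and cDC1-like cells. Without the T-like cluster of large cells 13 pairs were called higher. The share of all genes called higher was 4.45% in B-like, 17.6% in T-like, 9.3% in cDC1-like, 5.1% in erythroid-like, 7.87% in pDC-like and 19.8% in red pulp macrophage-like cells. The other 3 infusions had few calls. Live isogeneic over saline, 1 of 32 pairs was called higher and 2 lower (8.27% and 6.59% over all genes), the lower ones being Lgals1 in cDC2-like (0.521, 0.446 to 0.608) and in platelet or megakaryocyte-like cells (0.244, 0.167 to 0.351), where 6.28% and 9.92% of genes were called lower. The higher one was Lgals1 in red pulp macrophage-like cells (1.69, 0.938 to 3.07), where 8.81% of genes were called higher. Apoptotic allogeneic over saline, 1 of 30 pairs was called higher and 1 lower (3.18% and 5.55%), Lgals1 in erythroid-like cells (1.54, 0.890 to 2.75) and Lgals3bp in natural killer-like cells (0.510, 0.257 to 0.956), against 2.4% and 8.26% of genes in those classes. Apoptotic isogeneic over saline, 2 of 32 were called higher and 3 lower (3.28% and 5.67%), and Lgals3bp made up the 3 lower ones, in natural killer-like (0.377), pDC-like (0.564) and red pulp macrophage-like cells (0.611), where 8.93%, 6.75% and 7.39% of genes were called lower. The higher ones were Lgals3bp in platelet or megakaryocyte-like (2.11) and Lgals1 in red pulp macrophage-like cells (1.66), where 5.05% and 9.41% of genes were called higher. These comparisons share the saline library.

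Genes known to act with galectins, and gene groups that shared the cDC2-like contrast, were set beside the 4 genes. All these lists were chosen with earlier results of these data known, so their counts are a description and no test. Live allogeneic over live isogeneic, the median log2 ratio in cDC2-like cells was -0.04 over all genes. Of the 6911 genes tested, 9.03% were called higher and 11.4% lower. Of 30 interferon-stimulated genes 28 were measured and 27 called higher, with a median log2 ratio of 1.62. Examples were Ifi27l2a (3.34-fold) and the chemokine gene Cxcl9 (8.37-fold). Of 18 cytoskeletal and S100 genes of activated leukocytes 16 were measured and 8 called higher (median log2 ratio 0.57), among them Tmsb10 (1.95-fold), S100a6 (1.91-fold) and Crip1 (2.14-fold). Of 26 cell cycle genes 19 were measured and 8 called higher (median 0.52), among them Stmn1 (1.74-fold), Pclaf (1.80-fold) and Mki67 (1.55-fold). The stromal-like cluster of 143 cells that passed 10 cDC2 markers is not in these sums. The log2 ratio was 2.18 for Lgals1, 1.55 for Lgals3, 0.96 for Lgals9 and 1.53 for Lgals3bp.

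Of 28 galectin counter-receptor and ligand genes 16 were measured, and 2 were called higher, 2 lower and 12 neither (median log2 ratio -0.07). These counts and those of the 2 lists that follow are to be read against the 9.03% of all genes called higher and the 11.4% called lower in this contrast. Higher were Cd7, the galectin-1 receptor (1.66-fold, 1.47 to 1.87), and Cd40, a galectin-9 binding partner (2.63-fold, 1.94 to 3.57). Lower were Havcr2, which encodes Tim-3 (0.602, 0.491 to 0.734), and Itgam, an integrin chain (0.551, 0.400 to 0.747). Of 22 glycan enzyme genes 14 were measured and 1 was called, St6gal1, whose sialic acid cap blocks galectin-1 binding (0.601, 0.366 to 0.951). Of 14 genes for the handling of damaged vesicles 11 were measured and 1 was called, the ESCRT gene Chmp4b (1.67-fold higher, 1.44 to 1.92).

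For apoptotic allogeneic over apoptotic isogeneic, where 3.25% of all genes were called higher and 3.09% lower, the interferon-stimulated genes lay the other way, with 0 of 24 called higher and 14 lower (median log2 ratio -0.66, against 0.00 over all genes). Ifi27l2a (0.633), Isg15 (0.631) and Irf7 (0.627) were examples. None of the 16 measured cytoskeletal and S100 genes or of the 16 counter-receptor genes was called, and 1 of 16 cell cycle genes was (Tyms, 1.64-fold higher). In the glycan enzyme list St3gal2 was called higher (1.56-fold), and in the vesicle list Tsg101, just past the fold used. The galectin genes stayed near 0 in this contrast, between -0.28 and 0.20 on the log2 scale.

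**Figure D4:**
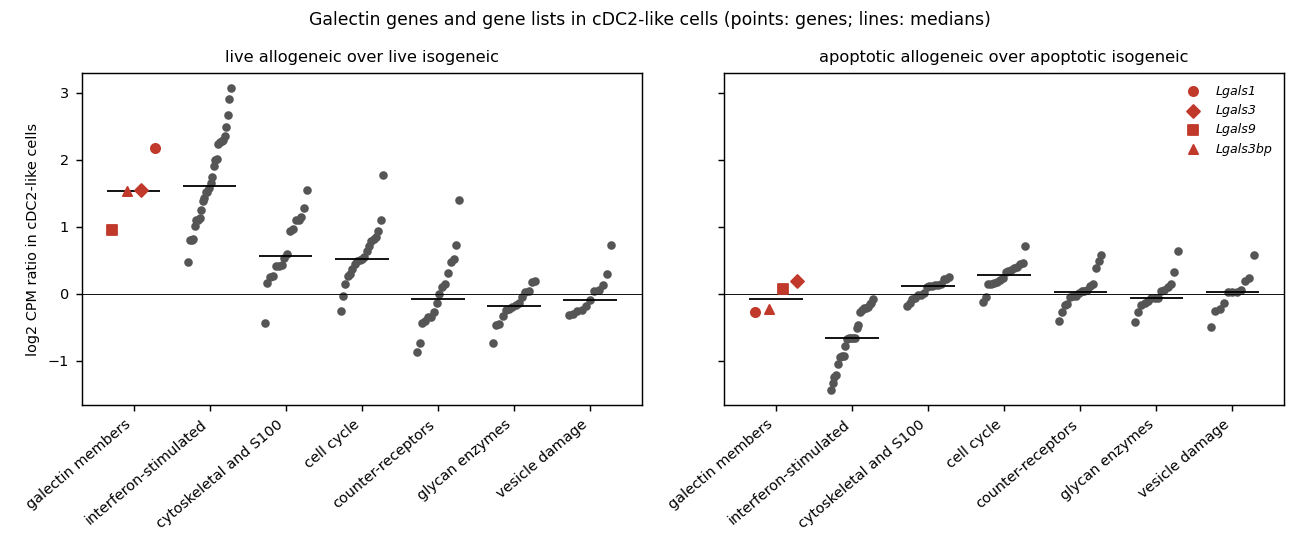
Log2 CPM ratio in cDC2-like cells of the 4 galectin genes (red) and of the genes of 6 lists (grey points, 1 per gene), with lines at the medians, for live and for apoptotic allogeneic over isogeneic cells. With live cells the galectin genes lay between 0.96 and 2.18, with medians of 1.62 for the interferon-stimulated, 0.57 for the cytoskeletal and S100 and 0.52 for the cell cycle genes. With apoptotic cells they lay near 0, and the interferon-stimulated genes had a median of -0.66.

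Of the other galectin genes, 7 of 9 symbols looked for were in the feature tables. Lgals8, whose galectin-8 marks damaged vesicles for autophagy, had 2618 UMIs in the kept cells and averaged 59.5 CPM in red pulp macrophage-like and 53.9 CPM in B-like cells. In cDC2-like cells it had 29.4 CPM in the live allogeneic, 33.2 CPM in the live isogeneic, 23.8 CPM in the apoptotic allogeneic, 22.8 CPM in the apoptotic isogeneic and 25.2 CPM in the saline library, and the live allogeneic level lay inside the range of the other libraries. Lgalsl (291 UMIs) was highest in natural killer-like cells with 14.7 CPM, Lgals7 (202 UMIs) in erythroid-like cells with 8.27 CPM, Lgals4 (99 UMIs) in pDC-like cells with 11.4 CPM and Grifin (74 UMIs) in cDC1-like cells with 4.66 CPM. Lgals2 had 5 UMIs in all kept cells and Lgals12 had 0.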

How the data were processed

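Spleen cells of 5 libraries, 1 per infusion group, were measured with the 10x Genomics single cell 3' v3.1 kit, per the labels' protocols. The deposited values are raw UMI counts per gene and barcode. Per the submitters' processing notes, the tool was Cell Ranger 4.0 and the genome mm10. Of the 5 files, 4 listed all 6794880 barcodes of the kit, while that of the apoptotic allogeneic library listed 2491, so it gave no value for free RNA. The 4 genes and all gene lists were chosen with earlier results of these data known.

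From these counts, cells were kept as described above, and doublets were called with Scrublet in scanpy 1.11.5. It called 1, 7, 8, 117 and 6 cells in the live allogeneic, live isogeneic, apoptotic allogeneic, apoptotic isogeneic and saline libraries, under 0.5% in 4 of them and below the expected rate, so doublets remained. Clustering used 2000 variable genes, 30 principal components, 15 neighbours and Leiden resolution 1. A name needed at least 3 markers and 25% of a class's markers with a log2 ratio of at least 1 in at least 10% of cells. Sums, CPM, ratios and intervals were computed with numpy 2.4.6 and scipy 1.17.1 and tested on simulated data. Named genes were the 4 genes, the 5 most like each by Pearson's r (genes with at least 500 UMIs), and up to 3 called genes per list and direction with the most UMIs. Some genes that this rule takes in are not reported here. Alternatives were another clustering, thinning, other cell and gene minimums, size factors and a fold of 2.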

Additional observations from a re-analysis of the deposited data

Results flagged for a closer look

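Lgals1 differed in direction between live and apoptotic cells, allogeneic over isogeneic, in 3 classes where both Poisson intervals lay on opposite sides of 1. In cDC2-like cells the ratio was 4.54 for live and 0.826 for apoptotic cells. In cDC1-like cells it was 2.20 for live and 0.549 for apoptotic cells, and in pDC-like cells 1.21 for live and 0.882 for apoptotic cells. Of these, 0.826, 1.21 and 0.882 did not pass the fold used. Within the main cDC1-like cluster the ratio was 2.44 for live and 0.636 for apoptotic cells. With 1 library per group these differences were not tested. The live isogeneic library was the lowest of the 5 for Lgals1 in cDC2-like and pDC-like cells, and its barcodes of at most 100 UMIs were also lowest, with 115 CPM against 276 to 303 CPM in the 3 other libraries with such barcodes. Their part in the ratios was not tested.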

How the results depend on the processing

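No paired analysis was possible because each group had 1 library. Ratios were recomputed for the 4 genes in cDC2-like cells, Lgals1 in T-like and Lgals3bp in B-like cells, and no called one among them changed direction. The other called pairs were recomputed as counts only. Of the recomputed values 125 stayed within the Poisson interval of the reported ratio, or within 1.5 times the reported count, and 28 did not. In cDC2-like cells, live allogeneic over live isogeneic, Lgals1 (4.54) became 3.69 at Leiden resolution 2, 3.63 with the genes allowed among the variable genes, 7.17 with each cell thinned to 1000 UMIs and 6.06 as a mean over cells. At resolution 2 and with the genes allowed, the class also held a cluster led by Mxd3. It then had 147 and 148 live allogeneic cells, against 124 in the reported fit. Thinned, Lgals3 became 2.24 and Lgals3bp 1.67, and as a mean over cells Lgals9 became 1.34. Against saline, Lgals1 became 1.96 at resolution 2 and 1.93 with the genes allowed, Lgals3 1.84 at resolution 2 and 1.47 thinned, Lgals9 1.39 thinned, and Lgals3bp 1.74 thinned and 1.97 as a mean over cells. Calls were thus lost for Lgals9 as a mean over cells, and against saline for Lgals3 and Lgals9 thinned. Of the 16 pairs called higher live allogeneic over live isogeneic, 9 remained in number at a fold of 2 and 4 of 7 measured after thinning. Against saline 14 became 8 and 1 (of 6 measured). For apoptotic cells the count of 1 became 2 at resolution 2, thinned, as a mean over cells or with size factors, and 0 at a fold of 2, with at least 2000 UMIs per cell or with the genes allowed. The causes were not tested, beyond thinning leaving fewer pairs to measure. Leaving out clusters (the shallow cDC2-like one, the T-like one of large cells, the Ifit3 B-like one) was chosen after seeing the data. It moved Lgals1 in T-like cells only, to 1.83 live allogeneic over live isogeneic, 1.02 over saline and 0.816 for apoptotic cells. Levels of a few UMIs per class, such as Lgals3 in erythroid-like cells, are limited by depth.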
